A study of Mus musculus with 6 samples.

Results

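The genes described here are 10 members of the Notch signalling pathway, chosen by name from a table of 36699 gene rows. They are the ligand genes Dll1, Dll3 and Jag1, the receptor gene Notch1, the Fringe enzyme gene Lfng, the coactivator gene Maml3 and the repressor genes Hes1, Hes3, Hes7 and Hey1. Each of the 10 had 1 row of its own, and all 10 were among the 18537 rows that the authors tested. The RNA came from mouse A2Lox.cre embryonic stem (ES) cells, a line with a doxycycline-responsive site for inserted transgenes, after 3 days of embryoid body culture. In 3 libraries, doxycycline had been present for 24 hours from day 2 and induced a Flag-tagged form of the Sp-family zinc-finger protein Sp5. The other 3 libraries came from the same Flag-Sp5 cells without doxycycline. Both groups had been grown on embryonic fibroblast feeders that were stripped away before embryoid bodies were formed. No group received the drug without carrying the Sp5 transgene among the samples used here, so their effects cannot be told apart.

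Notch signalling passes between touching cells. A Delta or Jagged ligand on one cell binds a Notch receptor on the next, the receptor is cleaved, and its freed intracellular part enters the nucleus, where it joins the DNA-binding protein Rbpj and a Mastermind coactivator. Genes of the Hes and Hey families, which encode basic helix-loop-helix repressors, are its classical targets. In the mouse embryo that gastrulates, Dll1, Dll3, Lfng, Hes1 and Hes7 are known for their part in the segmentation clock of the presomitic mesoderm.

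Levels are the authors' FPKM values (fragments per kilobase of transcript and sequencing depth), which are scaled to transcript length and can be compared between genes. The table held 1 value for each group, into which the authors had combined its 3 libraries, so no level has an SD and the values of single libraries are not analysed here. A gene is said to have risen or fallen where the authors' Cuffdiff test gave q under 0.05. As error, each log2 fold change is given with the SE implied by the deposited test statistic, that is, the size of the fold change divided by the size of the statistic. The labels do not say whether the libraries of a group came from separate cultures, so the test may measure only technical spread. In bulk RNA, fewer cells of a type and less RNA per cell cannot be told apart.

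Sp5 stood at 126 FPKM with doxycycline, against 0.769 FPKM without, in the direction of the labels, a value in which transgene and native Sp5 are not told apart. Of the 10 Notch genes, 6 rose (Hes3, Lfng, Maml3, Dll3, Jag1 and Hes1), 1 fell (Hey1) and 3 were not called (Dll1, Notch1 and Hes7). Of all tested rows in the authors' deposited table, 23.2% were called, with 10.5% higher and 12.7% lower. Among rows where either group reached 1 FPKM, the share was 28.3%, with 11.5% higher and 16.8% lower. With a minimum of 1.5-fold, which all 7 called Notch genes passed, the balance of all rows turned to 1117 higher and 967 lower. The 10 genes were listed with results of these data known, so their count is a description beside that background. Their median log2 fold change was 0.64, against -0.03 over all tested rows. The changes ranged widely in size, from a 17.9-fold rise of Hes3 to a 1.52-fold rise of Hes1, with Hey1 1.87-fold lower, and all 7 called genes reached at least 1 FPKM in the higher group. Among the 1414 rises at that level, Hes3 was number 14 by fold and Lfng number 108, whereas Maml3, Dll3, Jag1 and Hes1 stood between 347 and 582.

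**Figure D1:**
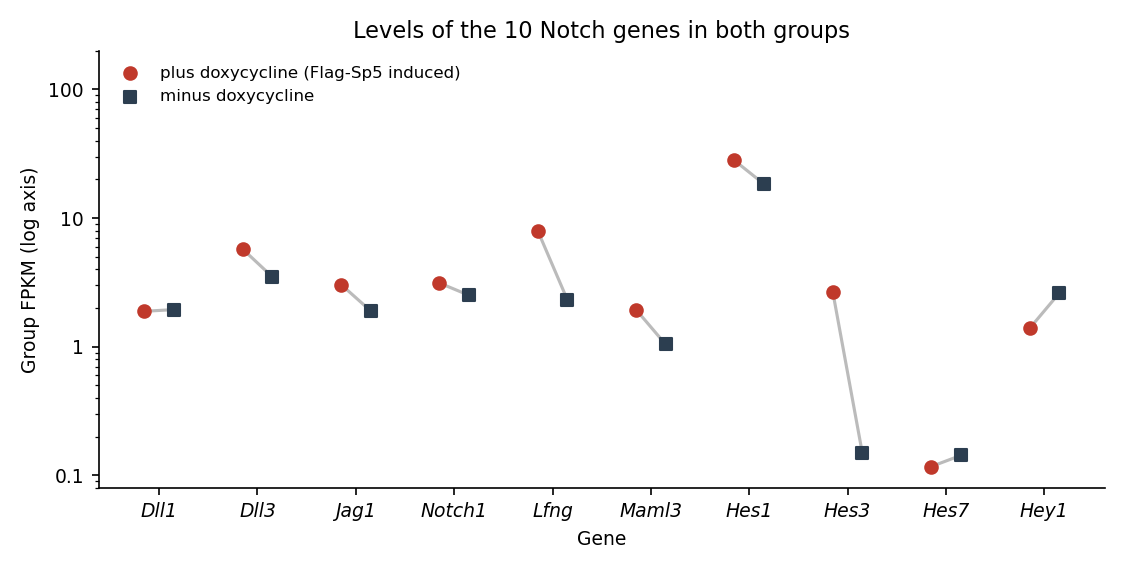
Group FPKM (log axis) of the 10 genes, with plus doxycycline as red circles and minus doxycycline as dark squares, 1 deposited value a group and no error bars. Hes3 shows the widest gap (2.66 against 0.149 FPKM), Hes1 is the highest gene in both groups, and Hey1 is the 1 called gene that is lower with doxycycline.

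Promoter sequences are shown for Lfng, Dll3 and Jag1, which rose, and for Notch1, which was not called, because Sp factors are known to bind GC-rich promoter elements and these windows differ in the elements they hold. RefSeq windows of 300 bases (250 before to 50 after the annotated start, build GRCm38.p6) were at hand for 7 of the 10 genes, and Hes1, Hes3 and Hey1 had none. Capitals mark any match, on either strand, to one of 6 motifs. The first 2 motifs are sites of Sp and Klf factors, namely GGGCGG, known as the GC box, and GGGTGTG, whose reverse strand is known as the CACCC type. Others are TGGGAA, which forms the core of the Rbpj site, and CACGTG, known as the E-box. Hes factors are known to bind CACGCG, which is called their class C site, and Tcf and Lef factors bind ATCAAAG. Lfng is on the plus strand of chr5:140607091-140607390. Dll3 is on the minus strand of chr7:28301736-28302035, Jag1 on the minus strand of chr2:137116471-137116770 and Notch1 on the minus strand of chr2:26503773-26504072.
Lfng: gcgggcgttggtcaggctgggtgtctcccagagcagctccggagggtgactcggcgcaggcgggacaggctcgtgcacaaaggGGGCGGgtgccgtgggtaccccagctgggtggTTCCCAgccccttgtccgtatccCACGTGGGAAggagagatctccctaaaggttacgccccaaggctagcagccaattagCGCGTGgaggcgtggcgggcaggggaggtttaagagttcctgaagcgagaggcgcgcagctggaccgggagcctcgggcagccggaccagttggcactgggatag
Dll3: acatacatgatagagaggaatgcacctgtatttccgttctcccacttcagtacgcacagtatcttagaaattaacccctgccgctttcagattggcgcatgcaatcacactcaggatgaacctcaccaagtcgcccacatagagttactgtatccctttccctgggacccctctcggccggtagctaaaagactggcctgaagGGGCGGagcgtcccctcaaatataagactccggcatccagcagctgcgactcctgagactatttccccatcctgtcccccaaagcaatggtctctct
Jag1: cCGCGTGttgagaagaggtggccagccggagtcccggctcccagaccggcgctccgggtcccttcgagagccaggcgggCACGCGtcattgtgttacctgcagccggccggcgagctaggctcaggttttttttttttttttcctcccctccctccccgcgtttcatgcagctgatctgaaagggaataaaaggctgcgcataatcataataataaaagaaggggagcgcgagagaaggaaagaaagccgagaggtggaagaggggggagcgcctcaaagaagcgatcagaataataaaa
Notch1: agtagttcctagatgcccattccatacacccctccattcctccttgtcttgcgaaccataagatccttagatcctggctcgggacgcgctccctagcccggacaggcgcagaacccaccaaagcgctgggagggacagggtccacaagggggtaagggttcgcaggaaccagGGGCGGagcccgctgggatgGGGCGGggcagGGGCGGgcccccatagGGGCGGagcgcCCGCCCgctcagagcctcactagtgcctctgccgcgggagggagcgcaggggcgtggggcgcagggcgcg

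The GC box was found in 4 of the 7 genes, namely Lfng, Dll3, Notch1 and Hes7, against 38.2% of the 27025 genes with a window and 34 of 45 other Notch pathway genes with one. The 4 thus included 2 genes that rose and 2 that were not called, while Jag1 and Maml3, which rose, had none in the window. Notch1 held 5 GC boxes, the first at position -78 from the start, and the other genes with a match held 1 each, at -47 in Dll3, -74 in Hes7 and -167 in Lfng. The class C site was in 4 of 7 genes (Lfng, Jag1, Hes7 and 1 of the 2 windows of Dll1), against 10.5% of all genes and 12 of the 45 other Notch pathway genes (26.7%). The Rbpj core was in Lfng, Hes7 and Maml3 (3 of 7, against 28.3% of all genes and 13 of the 45). The Lfng window alone held an E-box, against 8.09% of all genes and 7 of the 45 (15.6%), and it overlaps 1 of the 2 Rbpj cores there by the letters TG. No window of the 7 genes held the CACCC-type site, against 9.05% of all genes and 2 of the 45, or the Tcf and Lef core, against 4.29% and 1 of the 45. The 8 windows of these genes had a GC content of 52.0% to 68.3%, against a median of 52.7% over all windows, and its part in the shares of these motifs was not tested.

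Among the ligand genes, Dll3 and Jag1 rose and Dll1 did not pass the test. Dll3, whose product in the mouse acts within the cell as a divergent Delta protein and does not activate Notch on neighbours, had 5.74 FPKM with doxycycline, against 3.50 FPKM without. This was a 1.64-fold rise (log2 fold change 0.71, implied SE 0.15, 95% interval 0.42 to 1.00, q = 1.73e-05 in the authors' deposited table). Jag1, a Jagged ligand that activates the receptor, had 3.04 FPKM with doxycycline, against 1.90 FPKM without (log2 fold change 0.68, implied SE 0.15, 95% interval 0.39 to 0.97, q = 3.80e-05 in the authors' deposited table). The fold rise of Jag1 was 1.60, close to that of Dll3. Dll1, the main Delta ligand of the presomitic mesoderm, had 1.89 FPKM with doxycycline, against 1.94 FPKM without. Its q was 0.962 in the authors' deposited table, and the 95% interval of its fold ran from 0.707 to 1.33. Fold rises of the size of Dll3 and Jag1 lie above that interval, though the difference between the genes was not tested.

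The Dll3 row covers chromosome 7, positions 29076673 to 29087257 of mm9, the Jag1 row chromosome 2, 136907192 to 136942380, and the Dll1 row chromosome 17, 15504318 to 15516439. The Dll1 locus is shared with the row A930024N18Rik, which had 0.111 FPKM with doxycycline and 0.122 FPKM without. The library protocol mentions no strand marking, so reads of such a pair may not be separable.

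The receptor gene Notch1 had 3.13 FPKM with doxycycline, against 2.51 FPKM without. The log2 fold change of 0.32 had an implied SE of 0.25 and was not called (q = 0.440 in the authors' deposited table). Its 95% interval, -0.17 to 0.80, holds no change as well as a rise of the size of Dll3. Of the 10 genes, only Hes3 and Hes7 had a larger implied SE than Notch1, although Notch1 was not among the lowest in level. The row covers chromosome 2, 26301216 to 26372183 of mm9, together with a row for 0610009E02Rik and Gm13568 at 0.262 FPKM with doxycycline and 0.197 FPKM without.

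Lfng, which encodes the Golgi enzyme that extends O-fucose sugars on Notch and so changes its response to ligands, rose to 7.97 FPKM with doxycycline, against 2.32 FPKM without. The 3.43-fold rise (log2 fold change 1.78, implied SE 0.11, 95% interval 1.56 to 2.00) came with a q of 0 as listed by the authors' deposited table. Its row stood alone at its locus, chromosome 5, 141083295 to 141091497 of mm9. In level, Lfng stood at percentile 64.2 of tested rows with doxycycline, against percentile 45.7 without. Maml3, a Mastermind coactivator of the nuclear Notch complex, had 1.94 FPKM with doxycycline, against 1.04 FPKM without (1.86-fold, log2 fold change 0.90, implied SE 0.15, q = 1.40e-08 in the authors' deposited table). Its row covers chromosome 3, 51491533 to 51908813 of mm9, with 3 other rows at no more than 0.0248 FPKM in either group.

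**Figure D2:**
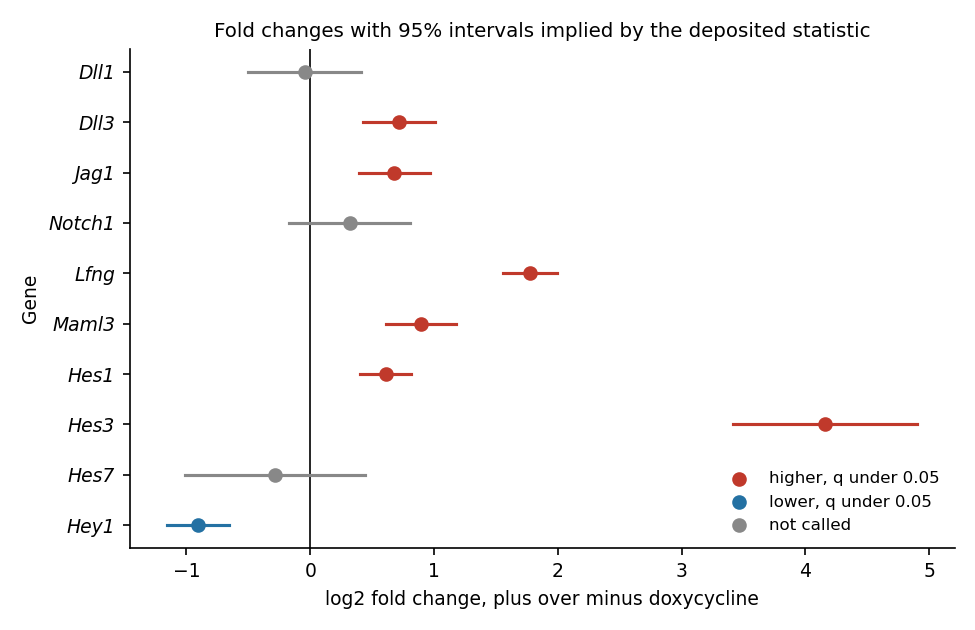
Log2 fold change, plus over minus doxycycline, of the 10 genes (points) with the 95% interval implied by the deposited test statistic (lines). The intervals of Dll1, Notch1 and Hes7 cross 0, that of Hey1 lies below 0, and that of Hes3 (3.41 to 4.90) lies above the intervals of the other 9 genes.

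The repressor genes went in different directions. Hes3, which in the mouse acts with Hes1 and Hes5 to keep neural progenitors undifferentiated, had 2.66 FPKM with doxycycline, against 0.149 FPKM without. This was a 17.9-fold rise (log2 fold change 4.16, implied SE 0.38, a listed q of 0 in the authors' deposited table), with a 95% interval of 10.7-fold to 29.9-fold. The fold rests on a low base, since the log2 fold change was 3.47 with 0.1 FPKM added to each value and 1.67 with 1 FPKM added. The gene stood at percentile 47.4 of level with doxycycline, against percentile 13.3 without. Hes1, a classical direct target of Notch, had 28.0 FPKM with doxycycline, against 18.4 FPKM without. Its 1.52-fold rise was small but had the lowest implied SE of the 10 genes (log2 fold change 0.61, implied SE 0.10, q = 6.99e-08 in the authors' deposited table). Hey1, a Hey repressor with a part in heart and vessel development, fell to 1.39 FPKM with doxycycline, against 2.60 FPKM without. The log2 fold change of -0.91 had an implied SE of 0.13 and a 95% interval of -1.16 to -0.66 (q = 2.47e-11 in the authors' deposited table). Hes7, the repressor on which the mouse segmentation clock depends, was low among tested rows (percentile 9.56 with doxycycline and 12.8 without), at 0.117 FPKM with doxycycline and 0.143 FPKM without. It was not called (q = 0.709 in the authors' deposited table), and its fold interval of 0.496 to 1.36 leaves a wide range.

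These rows are at chromosome 4, 151660081 to 151665771 (Hes3), chromosome 16, 30064470 to 30067882 (Hes1), chromosome 3, 8663362 to 8667039 (Hey1) and chromosome 11, 68933556 to 68937557 (Hes7) of mm9. Hes3, Hes1 and Hey1 stood alone at their loci. The Hes7 locus is shared with 9130213A22Rik, at 0.0336 FPKM with doxycycline and 0.0180 FPKM without.

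**Figure D3:**
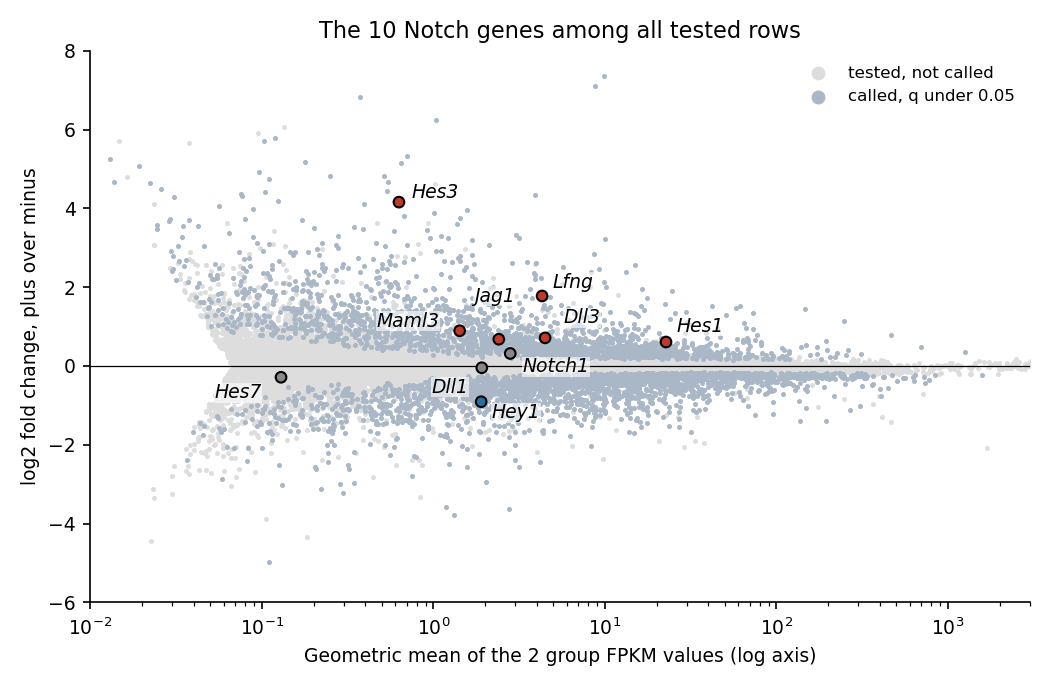
Log2 fold change, plus over minus doxycycline, against the geometric mean of the group FPKM values (log axis) for tested rows above 0 in both groups, of which 21 lie outside the axes. Grey-blue rows were called at q under 0.05, and the 10 Notch genes are named, with red for those that rose, blue for Hey1 and grey for those not called.

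Set beside the other genes of the same role, the 10 genes took other shares of the summed level in the 2 groups. Genes that are named here beside the 10 were chosen with their values seen. Lfng gave 43.1% of the summed FPKM of the 3 Fringe genes with doxycycline, against 19.0% without, and was the highest of the 3 with doxycycline and the lowest without. Rfng, a related Fringe enzyme, had 5.84 FPKM with doxycycline and 6.30 FPKM without (q = 0.604 in the authors' deposited table). Among 5 ligand genes, Dll3 gave 35.4% of the sum with doxycycline, against 28.1% without, and Jag2 33.1% with doxycycline, against 40.5% without. Among 10 Hes and Hey genes, Hes1 gave 46.6% of the sum with doxycycline, against 30.9% without. Hes6, a Hes protein that counters Hes1 in mouse neurons, gave 45.7% with doxycycline, against 63.0% without, and itself fell to 27.5 FPKM with doxycycline, against 37.5 FPKM without (q = 3.94e-08 in the authors' deposited table). The summed level of the 10 Hes and Hey genes was nearly the same, 60.2 FPKM with doxycycline and 59.5 FPKM without. Hes3 gave 4.42% of that sum with doxycycline and 0.250% without. The 4 receptor genes summed to 13.8 FPKM with doxycycline and 15.1 FPKM without, with Notch3 the highest in both groups. The sums rest on single group values and carry no test.

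**Figure D4:**
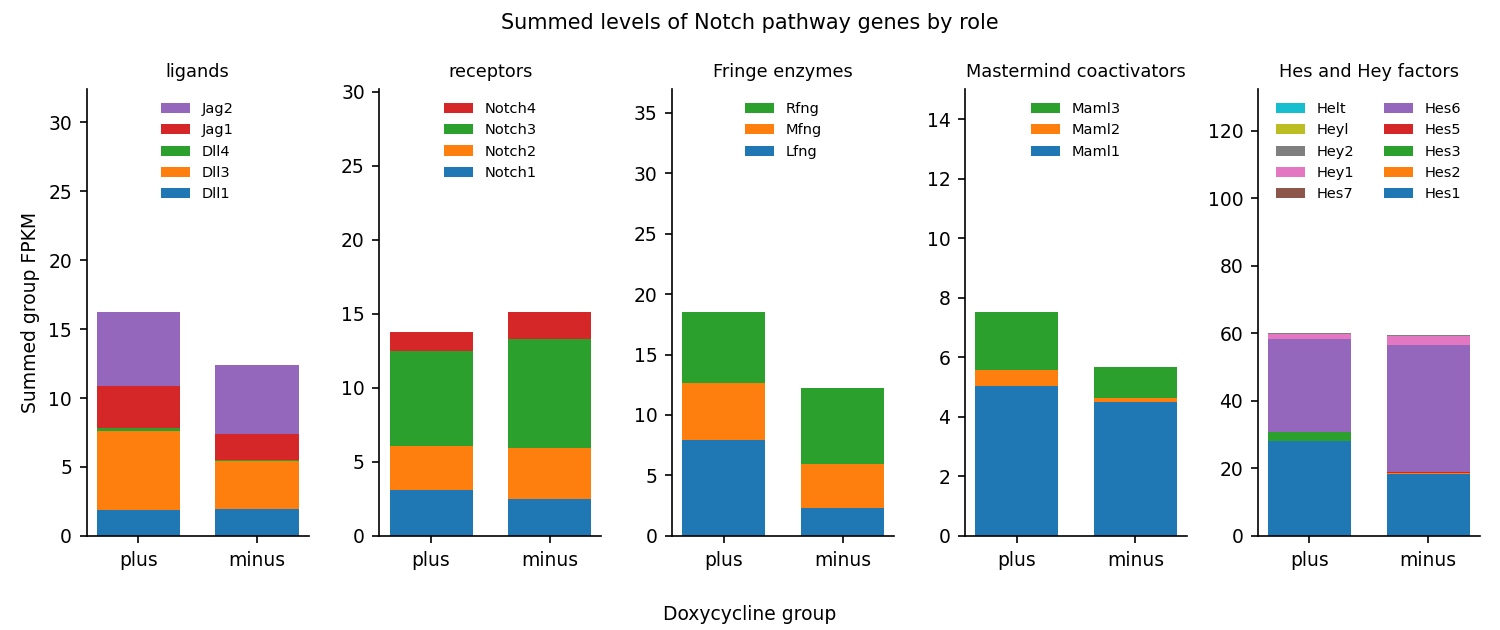
Summed group FPKM of Notch pathway genes by role, with the plus doxycycline bar left of the minus doxycycline bar in each panel and colours for genes, on a separate linear axis from 0 for each role. The Lfng part of the Fringe bar is 7.97 FPKM against 2.32 FPKM, and the Hes and Hey bars are nearly equal in height (60.2 and 59.5 FPKM) with more Hes1 and less Hes6 with doxycycline.

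The rest of the pathway was read from 6 lists of 56 genes taken from pathway knowledge. The authors' deposited table tested 52 of them, with 10 higher, 8 lower and 34 without a call. The share called, 34.6%, stood beside 23.2% of all tested rows, and the median log2 fold change was 0.05, against -0.03 over all tested rows. Of the 41 that reached 1 FPKM in the higher group, 13 were called, beside 28.3% of all tested rows at that level. Most calls were small, since 5 of the 18 reached 1.5-fold, and those 5 (Dll4, Dner, Aph1b, Maml2 and Hes5) stayed under 1 FPKM in both groups.

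Among 8 tested genes for other ligands and receptors, 2 rose and 2 fell. Dll4, a Delta ligand of arterial endothelium, rose to 0.172 FPKM with doxycycline, against 0.0512 FPKM without (q = 6.28e-07 in the authors' deposited table). Jag2, the highest gene of this list that was not called, had 5.37 FPKM with doxycycline and 5.04 FPKM without. Of 4 sugar-modifying enzyme genes, Mfng rose 1.29-fold (q = 0.0235 in the authors' deposited table) and 3 were not called. Among these 3, Poglut1, which adds O-glucose to Notch, had 25.8 FPKM with doxycycline and 24.2 FPKM without. Of 10 cleavage genes, 2 rose and 1 fell. Aph1b, a subunit of gamma-secretase whose close paralogue Aph1c may share its reads, rose 1.84-fold to 0.657 FPKM (q = 7.39e-05 in the authors' deposited table), and Psenen, another subunit, had 72.9 FPKM with doxycycline and 75.9 FPKM without and was not called.

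Of 12 tested genes of ligand endocytosis and receptor turnover, 2 rose and 3 fell. Dtx3l, a Deltex-like ubiquitin ligase, had the largest change among these calls, a log2 fold change of -0.46 (q = 0.0447 in the authors' deposited table), and Dtx3 had 45.1 FPKM with doxycycline and 53.7 FPKM without and was not called. Numbl shared its row with Adck4 and was not counted. Dll4, Dner, Hes5, Dtx3, Dtx3l, Snw1 and Axin2 share their loci with other rows, so their reads may not be separable. The same holds for Notch3 above and for the markers Pax6, Sox2, Pou5f1, Evx1 and Col1a1 below. Of 13 tested genes of the nuclear complex and its corepressors, 3 rose and 10 were not called. Maml2, like Maml3 a Mastermind gene, rose 3.49-fold to 0.519 FPKM (q = 6.03e-10 in the authors' deposited table), whereas the cofactor gene Snw1 stood at 66.0 FPKM with doxycycline and 67.7 FPKM without, not called. Of 5 tested genes among the other Hes and Hey factors and Nrarp, none rose and 2 fell. Hes5 had 0.0526 FPKM with doxycycline and 0.298 FPKM without (q = 0.000414 in the authors' deposited table). Nrarp, a feedback inhibitor and direct Notch target, had 2.00 FPKM with doxycycline and 1.79 FPKM without and was not called.

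**Figure D5:**
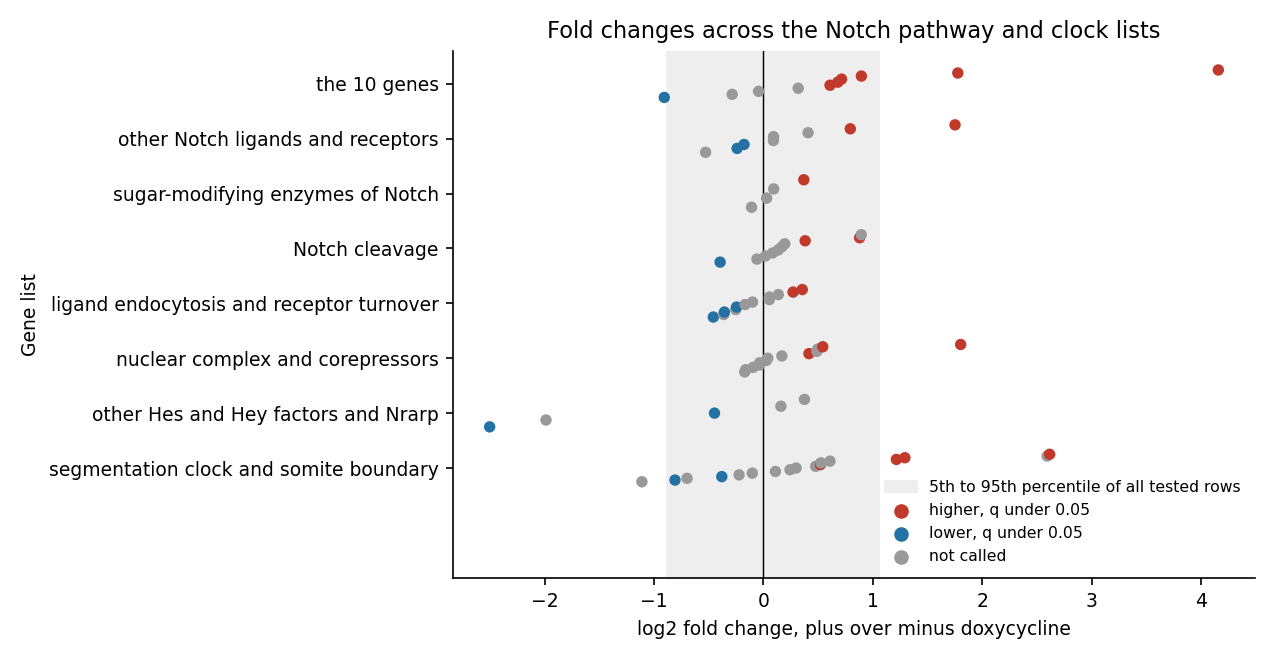
Log2 fold change, plus over minus doxycycline, of tested genes in each list (points; red rose, blue fell, grey not called), with the grey band from the 5th to the 95th percentile of all tested rows (-0.88 to 1.06). Most points of the other Notch lists lie inside the band, while Hes3 and Lfng among the 10 genes lie above it and Hey1 (-0.91) lies below it.

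Genes of the segmentation clock and of somite boundaries were listed as well, because Dll1, Dll3, Lfng, Hes1 and Hes7 are known from that tissue. The authors' deposited table called 4 of 17 tested genes higher and 2 lower and made no call for 11, a called share of 35.3% beside 23.2% of all tested rows. Of the 9 that reached 1 FPKM in the higher group, 5 were called, beside 28.3% of all tested rows at that level. The 3 rises of at least 1.5-fold at 1 FPKM or more were those of Axin2 (9.77 FPKM with doxycycline, against 1.59 FPKM without), Nkd1 (1.23 against 0.528 FPKM) and Snai1 (4.02 against 1.64 FPKM). Axin2 and Nkd1 are feedback inhibitors of Wnt signalling, and Snai1 is a repressor of epithelial genes. Dusp6, a phosphatase of the FGF pathway, was the highest gene of this list that was not called, with 35.7 FPKM with doxycycline and 33.1 FPKM without.

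Markers of cell types in which Notch genes are known to be active were read beside these values. In presomitic mesoderm the markers other than the 10 genes were low. Tbx6 had 0.553 FPKM with doxycycline and 0.362 FPKM without, Mesp2 0.344 and 0.239 FPKM, Ripply2 0.180 and 0.129 FPKM and Msgn1 0.10 and 0.0166 FPKM, and none of the 4 was called. All 6 markers of the streak and nascent mesoderm rose, with a summed level of 148 FPKM with doxycycline, against 14.4 FPKM without. Most of the sum with doxycycline was the gene T, at 103 FPKM with doxycycline, against 0.745 FPKM without. The rest rose between 2.01-fold (Gsc) and 75.9-fold (Evx1). The fold of Evx1 rests on a low base, with 9.01 FPKM with doxycycline, against 0.119 FPKM without. Of the neural progenitor markers, Nes fell to 5.24 FPKM with doxycycline, against 13.8 FPKM without, and Pax6 and Zbtb16 fell too, to 0.260 and 0.155 FPKM with doxycycline, against 1.05 and 0.222 FPKM without. Of 5 tested endothelial markers, 2 rose and 2 fell, with a sum of 2.31 FPKM with doxycycline, against 1.84 FPKM without. The rises were Dll4, which is itself a Notch ligand gene given above, and Sox18 (1.27 FPKM with doxycycline, against 0.594 FPKM without). The falls were Kdr (0.132 against 0.229 FPKM) and Cdh5 (0.0961 against 0.181 FPKM). Of 2 tested neuron markers 1 rose and 1 fell, of 5 visceral endoderm markers 3 fell, and of 6 tested feeder fibroblast markers 1 rose (Col1a1) and 2 fell, with fibroblast sums of 15.5 FPKM with doxycycline and 16.0 FPKM without. Of the 8 pluripotent and epiblast markers, all above 15 FPKM in both groups, 1 rose and 5 fell by the authors' deposited table. There Nanog rose 2.54-fold, and Fgf5 was 3.17-fold, Pou3f1 2.90-fold, Utf1 2.64-fold, Otx2 1.60-fold and Dppa4 1.23-fold lower, while Pou5f1 (1058 FPKM with doxycycline and 999 FPKM without) and Sox2 were not called. No marker with a row was listed at 0. The part of these cell types in the changes of the Notch genes was not tested.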

How the data were processed

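Poly(A) RNA was sequenced from 6 libraries, 3 a group, made with a TruSeq kit per the labels' protocols. The submitters' processing notes name the tools TopHat2 2.0.8, Bowtie and Picard, then Cuffdiff and Cufflinks 2.0.2, and the build mm9. The gene annotation, scaling and filters were not given in the sources used here. The authors deposited 1 FPKM value for each group and gene. The p-values and q-values deposited with them come from the authors' Cuffdiff test. The other deposited columns were read as scores, the log2 fold change and the test statistic. Without counts in the table the depth is unknown, so neither counting intervals nor floors are given.

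Log2 ratios of the group values matched the deposited fold changes to within 1.31e-05 in 18284 tested rows above 0 in both groups. The two-sided normal p-values of the statistic matched the deposited p to within 2.84e-06, so the absolute fold change divided by the absolute statistic was taken as its SE. The statistic has the sign opposite to the fold change in all 18284 rows. That SE holds whatever spread the authors' model used, which is not known here. Benjamini-Hochberg values over the 18537 tested rows matched the deposited q to within 1.79e-06, and rows marked significant were those with status OK and q under 0.05. The code for the adjustment and the SE was run on simulated data. There the statistic was drawn as fold change over SE, so the run checks the arithmetic and cannot check the form of the authors' statistic. The motif count was checked on short made-up sequences. Starts were read as 0-based, since spans then equalled RefSeq gene lengths in 3403 of 16512 genes, against 304 when read as 1-based. Python 3.11.15, numpy 2.4.6, pandas 2.3.3, scipy 1.17.1 and matplotlib 3.10.9 were used.

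The 10 members and all lists were chosen with earlier results of these data known. All 10 members were to be named. In each other list the rule named calls of at least 1.5-fold at 1 FPKM or more, the largest call and the highest uncalled gene, and other names were added with their values seen. Alternatives were pseudocounts, centring on the median, other thresholds and a shorter promoter window. A neural marker is not reported here.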

Additional observations from a re-analysis of the deposited data

How the results depend on the processing

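The 7 calls among the 10 genes (6 higher and 1 lower) were the same 7 genes with q under 0.01, with at least 1 FPKM in the higher group, with p-values adjusted over rows at that level, and with at least 1.5-fold. A minimum of 2-fold kept 2 of them, Lfng and Hes3. Leaving out rows with a shared locus or several names kept 6, without Maml3. Calls over all tested rows numbered 4306, and 2084 with a minimum of 1.5-fold (1117 higher and 967 lower) and 1068 with 2-fold (656 higher and 412 lower). Calls among the other Notch pathway genes numbered 18 (10 higher and 8 lower), and 5 with 1.5-fold (4 and 1). They were 8 higher and 4 lower with q under 0.01, 6 higher and 7 lower with at least 1 FPKM, and 6 higher and 8 lower with p-values adjusted over rows at that level. A pseudocount moved the log2 fold changes of 5 of the 10 genes by more than their implied SE. With 1 FPKM added they were 1.67 for Hes3, 1.43 for Lfng, 0.525 for Maml3, 0.48 for Jag1 and -0.59 for Hey1, and with 0.1 FPKM added 3.47 for Hes3. Subtracting the median of all tested rows turned no direction among the 10 genes. In the last 150 bases of the promoter windows, 0 of 7 genes held the Rbpj core and 0 held the E-box, which follows from the shorter window. No other alternative changed a total of calls by over 1.5 times. Leaving out single libraries was not run, because the table holds no values per library. No paired analysis was possible because the columns hold 1 combined value a group and carry no replicate number. The sample titles number the libraries 1, 3 and 4 with doxycycline and 2, 3 and 4 without. These titles do not say whether libraries of equal number belong together.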

Other observations

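The nearest tested rows on either side of the 10 genes were read as well, a look added with the values of the 10 genes seen. Of these 20 neighbours, 6 were called (2 higher and 4 lower), a share of 30.0% beside 23.2% of all tested rows in the authors' deposited table. Beside Hes3, Icmt rose 1.37-fold to 14.5 FPKM with doxycycline, against 10.6 FPKM without (q = 0.0022 in the authors' deposited table). Acot7, on the other side of Hes3, had 37.9 FPKM with doxycycline and 36.9 FPKM without and was not called. Both neighbours of Lfng, Chst12 and Ttyh3, were not called. Next to Dll3, the row BC089491 rose to 0.469 FPKM with doxycycline, against 0.199 FPKM without (q = 0.0285 in the authors' deposited table), at a distance of 468 bases. Per1, the circadian gene beside Hes7, fell to 3.93 FPKM with doxycycline, against 5.17 FPKM without (q = 0.000297 in the authors' deposited table).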
